A study of Mus musculus with 12 samples.

Results

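The 36 genes described here carry the signal from a stimulated receptor to integrins, calcium and contraction in platelets and in leukocytes. They were taken by name, as a set of ITAM, G protein, phospholipase, phosphoinositide 3-kinase, calcium and inside-out integrin signalling genes, and all 36 were found among the 46603 gene identifiers counted. The choice used no threshold on their level. The libraries came from C57/Bl6 mice aged 8 months, either wild type (WT) or lacking nuclear myosin 1 (KO), a nuclear form of the motor protein Myo1c. Each of the 4 combinations of genotype and tissue label had 3 libraries. Blood was drawn from the submandibular vein and spleen RNA came from a small piece of the organ's tip. The labels do not say whether each library came from a separate mouse, so the p-values measure the spread between libraries, which may be technical. Libraries are named by tissue label, genotype and replicate number.

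In platelets, collagen and podoplanin receptors signal through an ITAM, a short tyrosine motif that Src family kinases phosphorylate and that recruits Syk. Syk and adaptors such as Lat and Lcp2 assemble a complex around phospholipase C, which releases calcium and activates protein kinase C. Thrombin, ADP and thromboxane receptors reach the same steps through G proteins. Both routes end at the small G protein Rap1b, which with talin and kindlin-3 switches integrins into their binding form from inside the cell. B cells, T cells, mast cells and neutrophils use many of the same proteins, so in whole blood or spleen each transcript is a sum over several cell types. In such bulk samples, fewer cells of a type and less RNA per cell cannot be told apart.

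The libraries fell into 2 kinds that did not follow their tissue labels. Globin took 48.9% to 56.1% of counts in 6 globin-rich libraries (over 25%), namely WT 01, KO 02 and KO 03 of those labelled blood and WT 02, WT 04 and KO 03 of those labelled spleen. It took 0.846% to 5.9% in the 6 globin-poor ones, which were WT 03, WT 04 and KO 04 under the blood label and WT 01, KO 01 and KO 04 under the spleen label. Vcam1, a marker of red pulp macrophages and endothelium, stood at 0 to 1.72 CPM (counts per M counts, M being 10 to the power of 6, here and throughout with globin left out of the total) in the globin-rich libraries and at 197 to 411 CPM in the globin-poor ones. Spic, the transcription factor of those macrophages, had 0.244 to 1.69 CPM in the first and 46.4 to 59.8 CPM in the second kind. The globin-rich libraries labelled spleen thus nearly lacked these spleen markers, and the globin-poor libraries labelled blood carried them. Totals without globin were 4.09 to 5.83 M counts in the globin-rich and 21.8 to 27.4 M in the globin-poor libraries. The smallest count of any member in any library was 10. The sum over 15 platelet markers ranged between 3034 and 9500 CPM in the globin-rich kind and between 260 and 441 CPM in the globin-poor kind. Within the globin-rich kind it was 3034 CPM in blood KO 03, 4750 and 4836 CPM in the other two blood-labelled libraries, and 8652 to 9500 CPM in the spleen-labelled ones. The library spleen KO 03 had a neutrophil marker sum of 4552 CPM, against 441 to 1438 CPM elsewhere. Summed olfactory receptor genes, which these tissues are not known for, stood at 87 to 121 CPM in 4 of the globin-rich libraries (all but the KO 03 library of either label) and at 4.54 to 9.98 CPM in the other 8. The Myo1c gene was at 163 to 219 CPM under the WT blood label and at 150 to 200 CPM under the KO blood label. Under the spleen label it was at 180, 58.5 and 69.4 CPM for WT and at 134, 128 and 170 CPM for KO. This does not check the labels because the gene count also covers the forms of Myo1c that are kept.

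Between the 2 kinds of library the members' differences lay below those of every platelet marker. The log2 ratio of the median CPM in globin-rich libraries to that in globin-poor ones had a median of -0.25 over the members and ran from -1.59 to 0.95, with 13 above 0 and 23 below. Over all 14236 genes with both medians above 0 it was -1.18, so the members sat 0.93 above the median gene on this scale, and 34 of 36 lay above it. The 15 platelet markers ran from 2.57 to 5.76 with a median of 4.12, and the 5 pan-leukocyte markers from -1.47 to 0.25 with a median of -0.56. No member reached the lowest platelet marker. Above the highest pan-leukocyte marker lay 8 members, Fermt3, Prkcq, Tln1, Rap1b, Rasgrp2, Stim1, Itpr2 and Vav3, and below the lowest lay 1, Src. Markers of single leukocyte types reached higher, up to 0.33 for B cells, 1.77 for natural killer cells, 2.14 for monocytes and 2.42 for neutrophils. The T cell markers ended at -0.03. Monocyte, neutrophil and B cell markers also went lower than Src, to -5.00, -4.92 and -2.01. The members thus stayed within the span of leukocyte markers. A member was said to follow platelets when all 6 globin-rich libraries lay above all 6 globin-poor ones. When all lay below, it was counted as lower without overlap. That is no mark of leukocytes, as the sum of pan-leukocyte markers overlapped (907 to 2236 CPM in globin-rich, 1523 to 3020 CPM in globin-poor libraries). By these rules 0 of 36 followed platelets, beside 3.49% of 14538 genes. Lower without overlap were 2 of 36, Src and Plcb3, beside 49.8% of genes, a far larger share than that of the members. These counts depend on the scaling: with TMM-scaled library sizes (the trimmed mean of M-values, which centres the median gene), 16 members were higher without overlap, beside 13.2% of genes, and 0 lower, beside 18.2%. The member median became 0.86 and that of all genes -0.09.

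**Figure D1:**
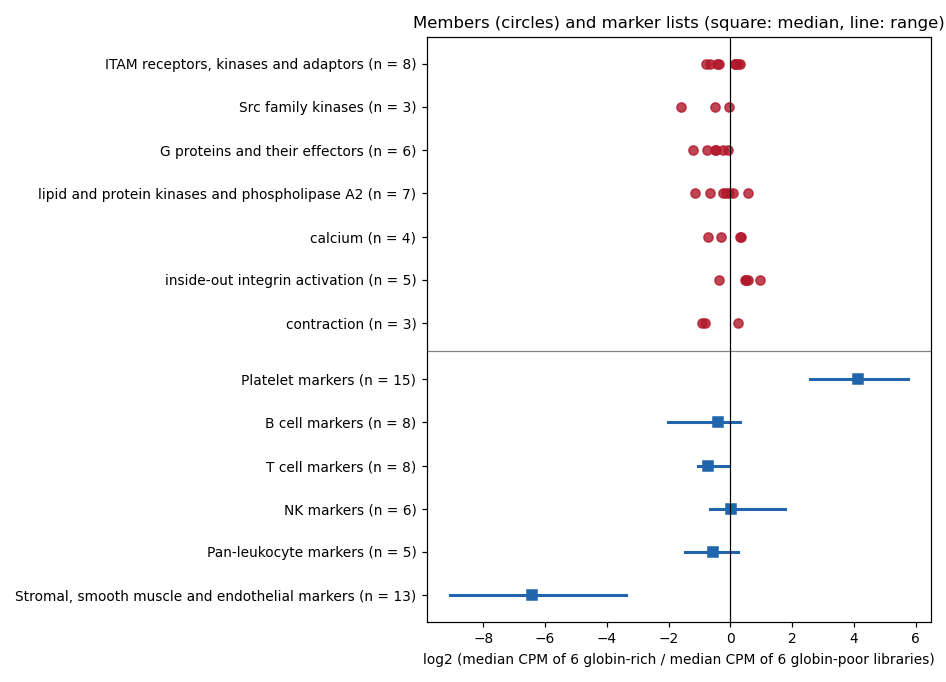
Log2 ratio of the median CPM (globin left out) of 6 globin-rich to 6 globin-poor libraries (horizontal axis) for the 36 members by role (circles) and for marker lists (square, median of the list; line, its range). The integrin activation genes reach 0.95, while the platelet markers start at 2.57 and the stromal markers end at -3.37.

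The genes of inside-out integrin activation stood highest by this ratio, with a role median of 0.51 and 4 of 5 members above 0. Fermt3, which encodes kindlin-3, the integrin activator of blood cells, had the largest ratio of the 36, at 0.95 (GRCm38 chromosome 19, 6998958 to 7019469, minus strand). Its level was 276, 563 and 801 CPM (lowest, median, highest) in the globin-rich libraries and 267, 291 and 309 CPM in the globin-poor ones. In the globin-rich libraries labelled blood it was 415 CPM (WT 01), 480 CPM (KO 02) and 276 CPM (KO 03). All 3 of the globin-rich libraries labelled spleen were above these, at 701 (WT 02), 801 (WT 04) and 646 CPM (KO 03), and blood KO 03 alone overlapped the globin-poor range. Tln1, which encodes talin-1, the protein that binds the integrin tail beside kindlin, had a ratio of 0.58. It ran from 581 to 1057 CPM (median 989) in the globin-rich and from 605 to 722 CPM (median 662) in the globin-poor libraries, again with blood KO 03 as the only library in the way. Without blood KO 03, which also had the lowest platelet sum of its kind, Tln1 and Fermt3 were the 2 members higher without overlap, beside 4.42% of genes.

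Rap1b, the most abundant Rap1 form of platelets, was at 267, 419 and 586 CPM across globin-rich libraries against 252, 293 and 390 CPM across globin-poor ones (ratio 0.51). Per kilobase of exon it was the highest of all members in the globin-rich libraries, at 145 CPM per kb, and the fourth in the globin-poor ones at 102 CPM per kb. Rasgrp2, the calcium-dependent exchange factor that loads Rap1 with GTP, was at 324, 424 and 623 CPM against 213, 309 and 455 CPM (ratio 0.46). For both genes the groups overlapped, and spleen KO 03 held the highest value. Apbb1ip, which encodes the Rap1 effector RIAM, was the exception in this role, with a ratio of -0.36 and levels of 57.4 to 138 CPM across globin-rich libraries against 89.1 to 131 CPM across globin-poor ones.

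The stretches before the transcription starts of Fermt3 and Rap1b, with ratios among the 4 highest, and of Plcb3, 1 of the 2 genes lower without overlap, are shown to set the members' differences beside their sequence. They are RefSeq windows of build GRCm38.p6, read 5′ to 3′ on the strand of the gene and trimmed to bases outside every annotated exon. Capitals mark matches, on either strand, to the GATA letters AGATAA or TGATAA, the ETS letters CGGAAG or the RUNX letters TGTGGT or TGCGGT, which megakaryocyte and leukocyte factors bind.
Fermt3, chr19:7019470-7019719, minus strand: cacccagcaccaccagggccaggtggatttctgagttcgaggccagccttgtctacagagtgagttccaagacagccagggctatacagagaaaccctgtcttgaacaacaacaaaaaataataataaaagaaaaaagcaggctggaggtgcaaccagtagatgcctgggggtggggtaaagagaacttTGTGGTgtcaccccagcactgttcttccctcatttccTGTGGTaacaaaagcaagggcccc
Rap1b, chr10:117846036-117846224, minus strand: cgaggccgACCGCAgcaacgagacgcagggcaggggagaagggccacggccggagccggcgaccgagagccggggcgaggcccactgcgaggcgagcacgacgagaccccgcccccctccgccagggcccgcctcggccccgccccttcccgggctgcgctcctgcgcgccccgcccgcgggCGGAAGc
Plcb3, chr19:6969815-6970064, minus strand: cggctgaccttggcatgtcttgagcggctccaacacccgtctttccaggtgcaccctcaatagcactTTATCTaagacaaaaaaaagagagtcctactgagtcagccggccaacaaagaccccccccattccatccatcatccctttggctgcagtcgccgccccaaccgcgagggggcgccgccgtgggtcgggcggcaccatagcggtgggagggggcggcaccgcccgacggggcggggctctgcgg
Windows of 250 bases before a start were found for 33 members, 44 windows in all. A GATA match was in 11.4% of them, an ETS match in 15.9% and a RUNX match in 20.5%. Of all 32851 windows, 16.6%, 13.6% and 18.6% held them, so the members' shares were near those of all genes. The ETS windows were those of Fcer1g, Myl12b, Mylk, Plcb2, Rap1b, Rasgrp2 and Tln1, and the GATA windows those of Lcp2, Pla2g4a, Plcb3, Plcg2 and Syk. A match describes the letters only and is no evidence of binding.

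The ITAM receptors, kinases and adaptors had a role median of -0.12, with 4 of 8 members above 0. Fcer1g, the ITAM-bearing gamma chain shared by the platelet collagen receptor and the immunoglobulin receptors of myeloid cells, was at 70.4, 114 and 208 CPM across globin-rich libraries against 76.5, 96.6 and 124 CPM across globin-poor ones. Its highest value was in spleen KO 03, the library with the neutrophil sum of 4552 CPM, and the part of neutrophils in it was not tested. Syk, the kinase that docks on the phosphorylated ITAM, was at 218 to 548 CPM (median 467) against 253 to 717 CPM (median 422), a ratio of 0.15. Plcg2, the phospholipase C of platelet and B cell ITAM signalling, also had a ratio of 0.15, with medians of 130 and 117 CPM. The highest ratio in this role was that of Vav3, a relative of Vav1, at 0.30, but from medians of only 9.24 and 7.48 CPM.

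The other 4 genes of this role were lower in the globin-rich libraries, each with overlap. Lat, the membrane adaptor of T cells and platelets, had medians of 75.7 and 131 CPM and the lowest ratio of the role, -0.79. Btk, a kinase of B cells and platelets, had medians of 63.3 and 99.3 CPM (ratio -0.65). Lcp2, which encodes the adaptor SLP-76, had medians of 49.8 and 67.1 CPM (ratio -0.43), and Vav1, the main Vav of blood cells, medians of 112 and 145 CPM (ratio -0.38). Within the globin-rich kind, Btk was lowest in spleen WT 02 (35.9 CPM) and spleen WT 04 (41.8 CPM), where the sums of 8 B cell markers were also lowest, at 1187 and 1731 CPM against 2394 to 2995 CPM in the other 4. The part of B cells in this was not tested.

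All 3 Src family kinases lay at or below a ratio of -0.05. Src itself, which signals downstream of integrins, had the lowest ratio of the 36, at -1.59 (chromosome 2, 157418444 to 157471862, plus strand). Under the blood label its globin-rich libraries had 6 (WT 01), 3.93 (KO 02) and 2.63 CPM (KO 03), and those under the spleen label 10 (WT 02), 5.62 (WT 04) and 8.04 CPM (KO 03). The globin-poor libraries ran from 10.8 to 27.4 CPM with a median of 17.5, so the 2 kinds did not overlap, by a gap of less than 1 CPM. Stromal cells express Src as well, and the sum of 13 stromal markers was 6.39 to 24.4 CPM across globin-rich libraries against 915 to 2007 CPM across globin-poor ones; their part in the Src level was not tested. Lyn, which phosphorylates ITAMs in platelets and B cells, was at 142 to 313 CPM against 119 to 286 CPM (ratio -0.05), and Fyn, which shares that task, at 65.4 to 106 against 62.8 to 166 CPM (ratio -0.49).

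None of the 6 G proteins and their effectors had a ratio above 0, and the role median was -0.47. Gnai2, the inhibitory G protein behind the ADP receptor P2Y12 and many chemokine receptors, was the most abundant member per kilobase in the globin-poor libraries, at 233 CPM per kb, and second in the globin-rich ones at 138 CPM per kb. Its 5 globin-rich libraries other than spleen KO 03 ran from 452 to 569 CPM, below all globin-poor ones at 793 to 936 CPM, while spleen KO 03 was at 889 CPM. Without spleen KO 03, Gnai2 was therefore 1 of 9 members lower without overlap, with Lat, Btk, Src, Gnaq, Plcb3, Akt1, Akt2 and Myl12b, beside 53.6% of all genes.

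Plcb3, a phospholipase C driven by G proteins, was the other member lower in every globin-rich library. It ran from 1.88 CPM (blood KO 03) to 19.4 CPM (blood WT 01) with a median of 13.3, against 19.5 to 45.6 CPM with a median of 30.8. The gap between the kinds was small, and with mitochondrial counts also left out of the total Plcb3 overlapped and Src alone remained. Plcb2, the phospholipase C of blood cells, had nearly equal medians of 58.3 and 62.1 CPM (ratio -0.09). Gnaq, which couples thrombin and thromboxane receptors to phospholipase C, had medians of 34.9 and 48.2 CPM. Gna13, which drives platelet shape change, had medians of 78.5 and 109 CPM, and Arhgef1, an exchange factor it activates, 676 and 807 CPM. These last 3 had ratios of -0.47, -0.48 and -0.25.

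Among the lipid and protein kinases and phospholipase A2 the ratios spread from -1.13 to 0.58 around a median of -0.13. Prkcq, the protein kinase C of T cells that platelets also carry, was at 58.6, 71.3 and 88.2 CPM in the globin-rich libraries. In the globin-poor ones the blood-labelled libraries were at 37 (WT 03), 36.3 (WT 04) and 37.6 CPM (KO 04) and the spleen-labelled at 68.5 (WT 01), 58.2 (KO 01) and 76.3 CPM (KO 04). The 3 blood-labelled globin-poor libraries were thus the low ones, below the other 9, and 1 spleen-labelled library, KO 01, was also just under the globin-rich range. Prkca, the calcium-dependent protein kinase C of platelets, had medians of 28.7 and 29.8 CPM (ratio -0.05). Akt2 stayed between 146 and 193 CPM over all 12 libraries, whereas Akt1 ran from 58.5 to 142 CPM against 122 to 202 CPM (ratio -1.13); both kinases act downstream of phosphoinositide 3-kinase.

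Of the phosphoinositide 3-kinase genes, Pik3cb, whose product sustains integrin signalling in platelets, was at 6.57 to 23.9 CPM against 22 to 35.4 CPM (ratio -0.66). Pik3cg, activated by G protein subunits, was at 15.7 to 52.5 CPM against 22 to 59.9 CPM (ratio -0.25). Pla2g4a, the cytosolic phospholipase A2 that frees arachidonic acid for thromboxane, was at 3.19 CPM in blood KO 03 and at 6.52 to 10.6 CPM in the other globin-rich libraries, against 7.44 to 11.1 CPM. Both Pik3cb and Pla2g4a had their lowest value of all 12 libraries in blood KO 03.

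The calcium genes divided evenly. Stim1, the calcium sensor of the endoplasmic reticulum, had medians of 74.1 and 58.1 CPM (ratio 0.35), and Itpr2, a receptor channel that releases stored calcium, medians of 89.5 and 72.8 CPM (ratio 0.30). The other release channel, Itpr1, was at 19.2 to 84.2 CPM against 34.2 to 76.7 CPM (ratio -0.31). Orai1, the plasma membrane channel that Stim1 opens, was at 13.9 to 35.3 CPM against 25.7 to 53.2 CPM (ratio -0.73). The sensor and its channel thus lay on opposite sides of 0, although the libraries of both kinds overlapped for each.

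Of the 3 contraction genes, Mylk, the calcium-dependent kinase of myosin light chain, had a ratio of 0.24. It was at 98.1 (WT 01), 112 (KO 02) and 36.4 CPM (KO 03) in the globin-rich libraries labelled blood and at 142 (WT 02), 159 (WT 04) and 176 CPM (KO 03) in those labelled spleen. Its globin-poor range was 70.1 to 178 CPM. Mylk is also a smooth muscle gene, and the smooth muscle marker Myh11 was at 0 to 2.39 CPM across globin-rich libraries against 32.1 to 111 CPM across globin-poor ones. Myl12b, a regulatory light chain with a near-identical paralog that can share its reads, was at 122 to 249 CPM against 215 to 359 CPM (ratio -0.83). Rock2, a kinase that keeps the light chain phosphorylated, was at 27.2 to 65.6 CPM against 64.9 to 98.5 CPM (ratio -0.90), overlapping by less than 1 CPM.

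**Figure D2:**
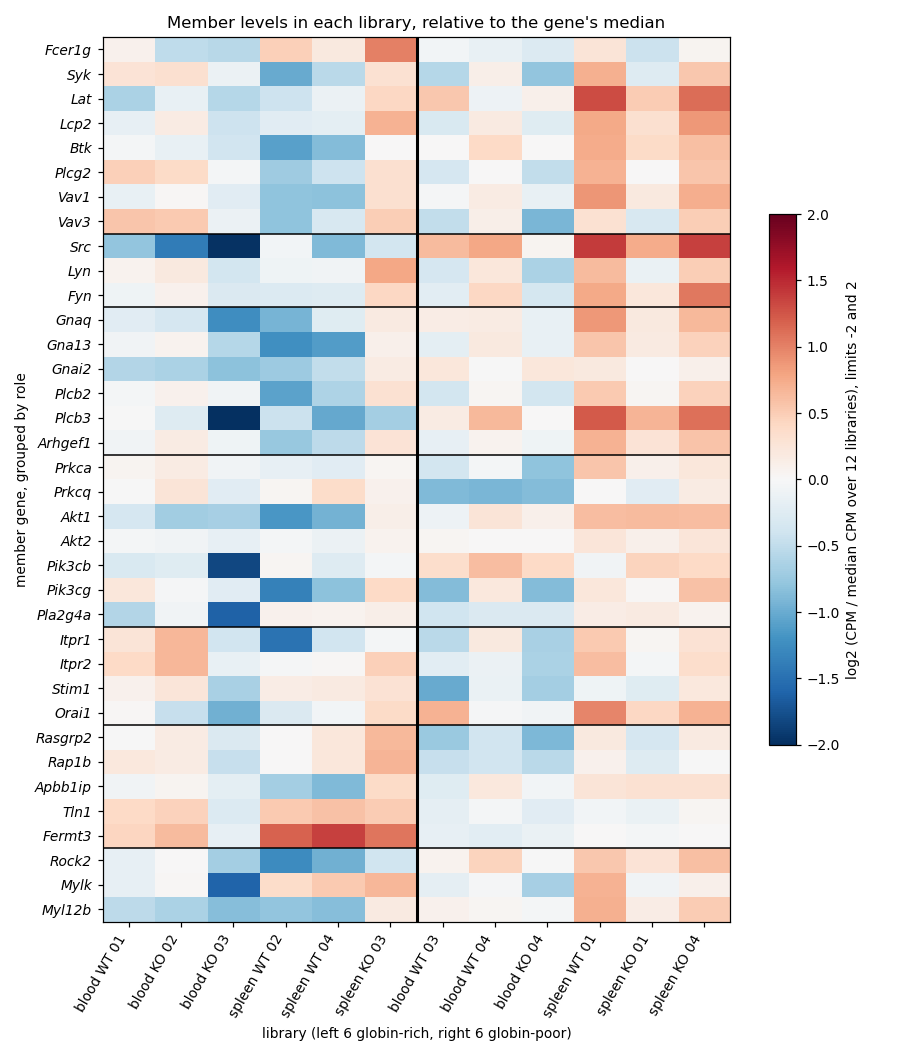
Log2 of each member's CPM (globin left out) over its median in the 12 libraries, by role (rows, parted by thin lines) and library (columns, 6 globin-rich left and 6 globin-poor right of the thick line), with colours limited at -2 and 2. The column of blood KO 03 holds the lowest value of the globin-rich libraries for 21 of 36 members, and that of spleen KO 03 the highest for 23.

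Single libraries stood at the ends of the range for most members. Blood KO 03 was the lowest of the 3 globin-rich libraries labelled blood for 34 of 36 members, and spleen KO 03 the highest of the 3 labelled spleen for 30 of 36. In the globin-poor kind, blood KO 04 was the lowest library for 20 members and spleen WT 01 the highest for 22.

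The 47 other genes of the same pathways had a median ratio of -0.42. Of these, 6 were higher in every globin-rich library and 15 lower in every one, beside the same 3.49% and 49.8% of all genes. The 6 higher genes, named after their values were seen, were Gng11 (ratio 4.79), a G protein gamma subunit, the regulatory light chain Myl9 (3.11), the stimulatory G protein Gnas (2.68), the essential light chain Myl6 (1.47), the adaptor Grap2 (0.97) and the small G protein Rap1a (0.38). Gng11, Myl9 and, near the lower end, Gnas lay inside the range of the platelet markers, where no member lay. The 6 red cell markers apart from globin ran from -7.34 to 6.06, with 4 above 0, so this range is not particular to platelets.

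Genotype was compared first within each tissue label, by edgeR's quasi-likelihood test with Benjamini-Hochberg adjustment over all genes tested. In blood 0 of 36 members passed an adjusted p of 0.05, beside 0% of 14939 genes (0 called; 24 genes and 0 members at an unadjusted p under 0.05). DESeq2 and limma-voom called 0 genes too, with 54 and 42 genes at that unadjusted p. On edgeR's TMM scale the member median was 0.27 (log2, KO over WT), with 29 of 36 above 0. The median over all genes tested was -0.046. By CPM the direction was not the same. For most members the mean CPM was lower in KO than in WT blood, as for Syk (402 against 434 CPM). Fermt3 was among those higher in KO (346 against 320 CPM). Log2 fold changes by genotype below are on the TMM scale. Leaving out single libraries moved the member median between 0.067 (without WT 03) and 0.57 (without WT 01). KO blood held 2 globin-rich libraries and WT blood 1. With library kind as a term in the model, the member median was -0.051 with 14 of 36 above 0.

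The members with the smallest p in blood were Src at -0.86 ± 0.44 (SE), Prkcq at 0.74 ± 0.66 and Apbb1ip at 0.42 ± 0.38, each with an adjusted p of 1. With the kind term these values were -0.60, 0.20 and 0.15. Src averaged 13.3 ± 6.38 CPM over the WT libraries and 5.8 ± 4.41 CPM over the KO ones (SD, n = 3), and the groups overlapped. No member was higher in every KO blood library than in every WT one, beside 0.117% of genes, and 2 were lower, beside 3.37%. Those 2 were Fcer1g and Orai1. The WT libraries had 110, 100 and 93.2 CPM of Fcer1g and the KO libraries 73.1, 70.4 and 85.6 CPM. For Orai1 the WT values were 27.3, 43.5 and 26.6 CPM and the KO values 19.5, 13.9 and 25.7 CPM. The gap for Orai1 was under 1 CPM, and the edgeR estimate for Fcer1g, which is scaled by TMM, was -0.0084 ± 0.39.

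In spleen the member median on the TMM scale was -0.30, with 4 of 36 above 0, against 0.019 over all genes. It lay between -0.54 (without KO 03) and -0.12 (without KO 01) on leaving out single libraries. By CPM most members went the other way, with a higher mean in KO than in WT, as Syk at 516 against 412 CPM. Fermt3, Tln1, Mylk and Prkcq had a lower mean CPM in KO. Here too 0 members passed, beside 0% of 15362 genes (0 called; 370 genes and 0 members at an unadjusted p under 0.05; DESeq2 0 called and 698, limma-voom 0 called and 154). The smallest p-values belonged to Prkca at -0.70 ± 0.37, Prkcq at -1.02 ± 0.57 and Mylk at -0.97 ± 0.60, each with an adjusted p of 0.989. WT spleen held 2 globin-rich libraries and KO spleen 1. With the kind term the 3 values were -0.40, -0.39 and -0.54, and the member median was -0.11. The largest difference was that of Fermt3, at -1.42 ± 0.97, with WT libraries at 309, 701 and 801 CPM and KO libraries at 301, 646 and 309 CPM: in each genotype the globin-rich libraries were the high ones. By range, 1 member was higher in every KO spleen library, beside 1.3% of genes, and 0 were lower, beside 1.27%. It was Apbb1ip, where the WT libraries had 126, 66.2 and 57.4 CPM and the KO ones 131, 138 and 131 CPM, with an edgeR estimate of 0.06 ± 0.38.

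The KO effect in spleen minus that in blood had a member median of -0.41, and 0 members passed, beside 0% of 16858 genes (0 called; 171 genes and 0 members at an unadjusted p under 0.05; DESeq2 0 called and 510, limma-voom 0 called and 67). Prkcq at -1.61 ± 0.89, Akt2 at -0.94 ± 0.58 and Fermt3 at -1.76 ± 1.13 had the smallest p-values, all with an adjusted p of 0.931 by edgeR. With library kind in the model these were -0.47, -0.31 and -0.52 and the member median was 0.09. No single member was thus called for a difference between the tissues, and the set as a whole was not tested. The direction of the member median depended on the kind term. Over all genes tested the median was 0.15 without that term and 0.041 with it. On leaving out single libraries the member median lay between -0.71 (without spleen KO 03) and -0.17 (without spleen KO 01).

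**Figure D3:**
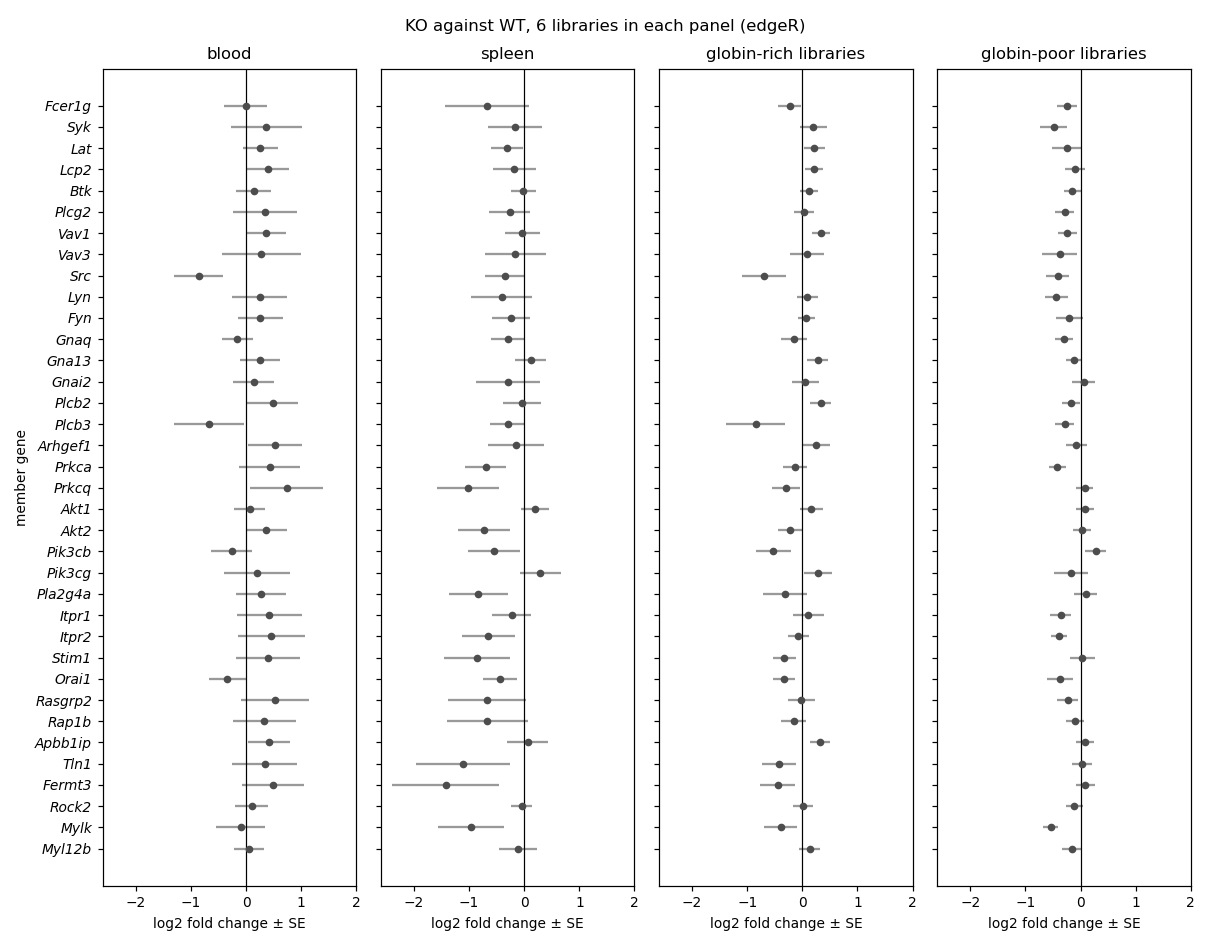
KO over WT log2 fold changes with SE (edgeR, TMM-scaled, horizontal axis) for the 36 members in the libraries labelled blood, those labelled spleen, the globin-rich and the globin-poor ones, 6 libraries in each panel. In blood 29 members lie above 0 and in spleen 4, while the globin-rich panel is centred at 0.019 with narrower bars.

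Within each kind of library, with tissue label as a term, the member medians lay nearer 0. These comparisons reuse the same libraries and are not independent of those by tissue. In the globin-rich libraries the member median was 0.019 with 19 of 36 above 0, against -0.029 over all genes tested. No member passed, beside 0% of 12962 genes (0 called; 923 genes and 0 members at an unadjusted p under 0.05; DESeq2 called 11 genes and limma-voom 0, with 1232 and 1459 at that p, and no member among the calls). Without blood WT 01, edgeR called 397 of 14013 genes, without blood KO 02 it called 4 of 12419, and with no filter on low counts 84 of 32944. None of these calls was a member, and 4, 4 and 1 members had an unadjusted p under 0.05. Vav1 at 0.34 ± 0.17, Apbb1ip at 0.32 ± 0.18 and Plcb2 at 0.33 ± 0.19 had the smallest p-values, with adjusted p of 0.672, 0.677 and 0.677. KO libraries are 2 of the 3 labelled blood there and 1 of the 3 labelled spleen, and the KO spleen library is the one with the neutrophil sum of 4552 CPM; its part in these values was not tested.

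In the globin-poor libraries the member median was -0.17 and 10 of 36 were above 0. Over all genes tested the median was -0.00082, with 49.9% above 0. Mylk at -0.54 ± 0.14, Prkca at -0.42 ± 0.16 and Itpr2 at -0.39 ± 0.15 were the 3 members at an unadjusted p under 0.05, all with an adjusted p of 0.747. Blood KO 04 is the only KO library labelled blood in this kind, and spleen WT 01 the only WT library labelled spleen. Blood KO 04 was the lowest of this kind for 20 members and spleen WT 01 the highest for 22. Without blood KO 04, 0 members had an unadjusted p under 0.05 in edgeR, and without spleen WT 01 also 0. On leaving out single libraries Mylk lay between -0.59 and -0.49, Prkca between -0.53 and -0.31 and Itpr2 between -0.46 and -0.34. The count of members passing was 0, beside 0% of 17098 genes (0 called and 775 at an unadjusted p under 0.05; DESeq2 9 called and 1219, limma-voom 0 called and 907, no member among the calls). Mylk was at 97.9, 109 and 178 CPM in the WT libraries of this kind and at 70.1, 105 and 118 CPM in the KO ones, which overlap. Stromal and smooth muscle markers moved with it: their sum was 1195, 1176 and 2007 CPM in those WT libraries and 915, 1171 and 1506 CPM in the KO ones, and their part in the Mylk value was not tested.

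Within the globin-rich kind, most members were higher under the spleen label on edgeR's TMM scale, but not by CPM. Their median on the TMM scale was 0.34 (spleen over blood label, genotype as a term), with 27 of 36 above 0. Over all genes tested it was -0.05. By the log2 ratio of median CPM fewer members were above 0. By that ratio Gna13 was at -1.05 and Fcer1g at 0.98. Apbb1ip was at -0.61 by CPM and at 0.065 in edgeR. No member passed in edgeR, beside 0.00771% of 12962 genes (1 called), but 14 of 36 members and 1392 genes had an unadjusted p under 0.05. DESeq2 called 239 genes with 6 members, Fcer1g, Lat, Gnai2, Rasgrp2, Fermt3 and Mylk, all higher, and limma-voom called 132 genes with 1 member, Fcer1g. The members with the smallest p in edgeR were Fcer1g at 1.08 ± 0.21 (adjusted p 0.115), Lat at 0.76 ± 0.19 (0.185) and Mylk at 1.16 ± 0.30 (0.194).

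On the CPM scale 5 members were higher in all 3 spleen-labelled than in all 3 blood-labelled globin-rich libraries, beside 3.5% of genes, and 0 were lower, beside 7.22%. They were Fcer1g, Pla2g4a, Tln1, Fermt3 and Mylk. The 15 platelet markers, by the edgeR fit, had a median of 1.21 and were all above 0, and the 7 tested neutrophil markers had a median of 1.27. The neutrophil sum was 4552 CPM in spleen KO 03 but 853 and 789 CPM in spleen WT 02 and WT 04. Under the blood label it ran from 695 to 1438 CPM. The platelet sum was 8652 to 9500 CPM in all 3 spleen-labelled libraries. The pan-leukocyte markers had a median of 0.077 and the B cell markers one of -0.26. The members with the largest values were Mylk, Fcer1g, Src (1.04 ± 0.40), Fermt3 (1.02 ± 0.32) and Pla2g4a (0.93 ± 0.40), all under both the platelet and the neutrophil median, which these values do not tell apart. Tln1 was at 0.47 ± 0.31. Among those below 0 were Syk (-0.22 ± 0.24), Btk (-0.14 ± 0.17) and Plcg2 (-0.25 ± 0.18). The part of platelets, neutrophils and B cells in these values was not tested.

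**Figure D4:**
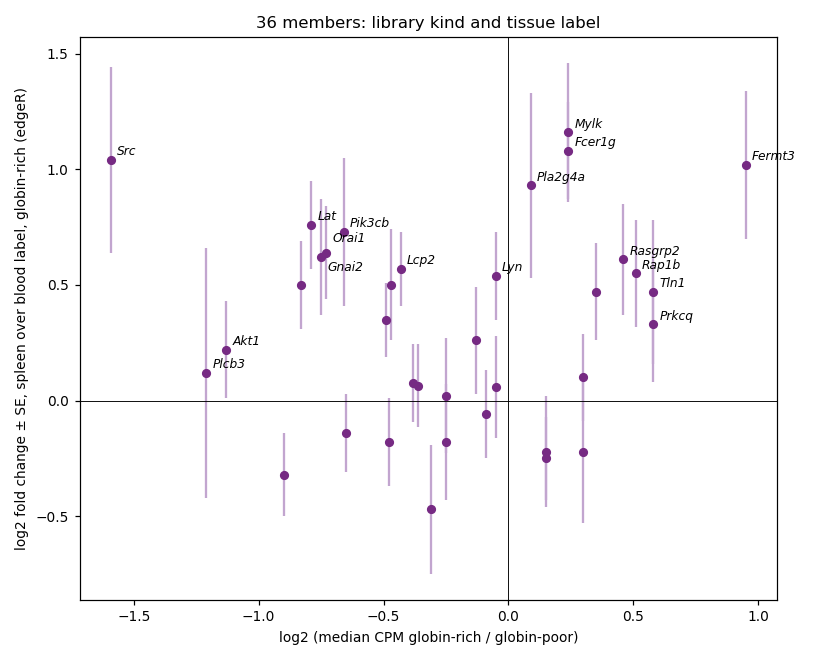
For the 36 members, log2 ratio of the median CPM in globin-rich to globin-poor libraries (horizontal axis) against the log2 fold change ± SE of spleen-labelled over blood-labelled libraries within the globin-rich kind (vertical axis, edgeR, TMM-scaled). Fermt3 is far right and high (0.95 and 1.02), Mylk and Fcer1g are high at a ratio of 0.24, and Src is high but far left (1.04 at -1.59).

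**Figure D5:**
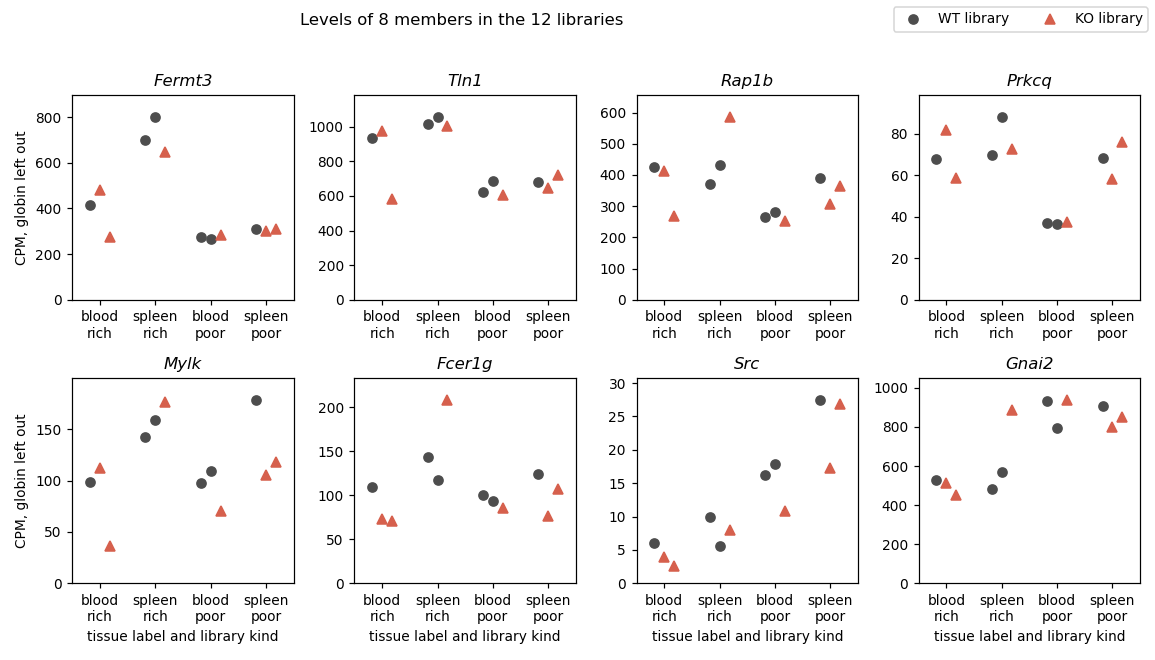
CPM with globin left out (vertical axis, linear from 0) of 8 members in each of the 12 libraries, by tissue label and library kind, with circles for WT and triangles for KO. Fermt3 and Tln1 are high in the spleen-labelled globin-rich libraries, Prkcq is low in the blood-labelled globin-poor ones, and Src is low in all globin-rich ones.

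In the globin-poor kind the spleen label was the higher one for most members on the TMM scale, with a median of 0.39 and 30 of 36 above 0. Over all genes tested the median was 0.059, with 53.5% above 0. No member passed in edgeR, beside 0.0292% of 17098 genes (5 called; 5125 genes and 16 members at an unadjusted p under 0.05). Prkcq at 0.60 ± 0.16, Prkca at 0.60 ± 0.16 and Itpr2 at 0.52 ± 0.15 had the smallest p-values, with adjusted p of 0.0728, 0.0745 and 0.0865. DESeq2 called these 3 among 2836 genes, and limma-voom called 1193 genes with 0 members. By range, 16 members were higher in all 3 spleen-labelled libraries, beside 26.3% of genes, and 0 were lower, beside 9.44%. T cell markers, by the same fit, had a median of 0.70, B cell markers 0.39 and platelet markers -0.035. Of the 5 members without overlap by CPM in the globin-rich kind, Fermt3 (-0.12 ± 0.17), Tln1 (-0.15 ± 0.18) and Fcer1g (-0.039 ± 0.18) were below 0 on the TMM scale here. Mylk (0.46 ± 0.14) and Pla2g4a (0.20 ± 0.21) were above it. By CPM, Fermt3 and Pla2g4a were among the 16 members higher without overlap in this kind. Fermt3 was at 301 to 309 CPM under the spleen label and at 267 to 282 CPM under the blood label. The difference between the kinds was not tested.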

How the data were processed

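The deposited files hold raw read counts per gene, 1 table per library, with no normalization, as their whole-number values show. Per the submitters' processing notes, reads were handled with HISAT2 2.0.4, HTSeq, SAMtools 0.1.19, FastQC and Trimmomatic 0.36. Builds named there are GRCm38 and mm10. Which annotation HTSeq used, and whether it read strand, is not given in the sources used here. Without strand, reads where exons of 2 genes overlap cannot be assigned. Tln1 shares 360 exon bases with Creb3, Mylk 548 with E130310I04Rik, Fermt3 89 with Trpt1 and Plcb3 22 with Ppp1r14b. Ppp1r14b had 21621 counts over all libraries and Plcb3 5046. Myl12b shares 739 exon bases on the same strand with a second annotated gene of that symbol, which reading strand would not resolve.

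Symbols came from GENCODE vM21, which held 46005 of 46603 identifiers. CPM left 10 globin genes out of each total. Genotype and label were tested with edgeR 4.0.16 in R 4.3.3 (filterByExpr, TMM, robust quasi-likelihood F test) at a Benjamini-Hochberg adjusted p of 0.05 over all genes. Data were simulated for genotype by tissue label, genotype by library kind, and label in the globin-rich kind. The difference between the tissues and the label fit in the globin-poor kind were not simulated. On these data the fits within a library kind called the altered genes for the most part, whereas those of genotype by tissue label called none. An absence of calls by tissue label therefore carries no weight. The simulation gave each library the mean of its kind and all genes the same spread, and altered abundant genes only. It left out the differences between libraries of a kind, so it does not show what the fits within a kind could call here. Library kind was cut at a globin share of 25%. DESeq2 1.42.0, limma-voom 3.58.1, other scalings and filters, a replicate block, a kind term and the omission of each library in turn were alternatives. Named with statistics were members called, or otherwise the 3 with the smallest p per comparison, and others are given as values. No library pair was a duplicate (smallest chi-square per degree of freedom 8.09). Members, gene lists and library kinds were chosen with earlier results of these data known.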

Additional observations from a re-analysis of the deposited data

How the results depend on the processing

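The count of members passing in edgeR stayed at 0 in the 3 genotype comparisons by tissue label and the 2 by library kind under every alternative run. For spleen over blood label in the globin-rich libraries it was 4 without a filter on low counts (among 384 of 32944 genes called), 6 with DESeq2 (239 genes), 1 with limma-voom (132 genes) and 0 to 1 on leaving out a library (1, Fcer1g, without blood WT 01, among 272 of 14013 genes). In the globin-poor libraries it was 3 with DESeq2 (2836 genes) and 0 to 2 on leaving out a library (2 without spleen KO 01, among 2349 of 16926 genes). Members lower without overlap between the kinds were 21 with globin kept in the total (median -1.21; 74.4% of genes), 1 with mitochondrial counts also left out, 0 with TMM-scaled sizes (16 higher, median 0.86) and 2 to 9 on leaving out a library (9 without spleen KO 03). Members higher were 0 to 2 (2 without blood KO 03). The cause of these shifts was not tested. In an alternative chosen after seeing the data, with 3 libraries a tissue whose markers matched the label (1 WT, 2 KO), Prkcq in spleen reversed to 0.039.

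With a replicate block the member medians were 0.26 in blood, -0.61 in spleen and -0.23 for their difference, with 0 members called. Whether a shared number marks 1 mouse is not given in the labels. Same-numbered libraries correlated at 0.39 to 0.65 where their kinds matched and at -0.77 to -0.18 where they did not. These correlations cannot answer that question. They are of deviations from group means that mix the kinds, and most pairs join a WT with a KO library. Depth limits the members under 20 CPM in globin-rich libraries, such as Vav3, Src, Plcb3 and Pla2g4a.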
